A study of Homo sapiens with 12 samples.

Results

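The data described here set Cal27 cells made resistant to afatinib (Cal27 AfaR) directly against Cal27 cells made resistant to erlotinib (Cal27 ErlR). Members were all Ensembl genes in the count tables of these 4 libraries, with spike-in sequences left out, and the 4 libraries were 2 replicates each of AfaR and ErlR out of 12 in the series. Cal27 is an established squamous cell carcinoma line of the tongue, labelled wild type. Erlotinib is a reversible inhibitor of the epidermal growth factor receptor EGFR, and afatinib is an irreversible inhibitor of EGFR and other ERBB family receptors. Both derivatives came from the same parental line, were selected by stepwise dose increases up to different final doses, were kept under drug and were then grown without drug for a day before use. The 2 parental Cal27 libraries entered the fit and are given beside the resistant ones as a reference, and FaDu, a squamous carcinoma line of the pharynx with the same 3 groups, served only for a comparison between lines. Each derivative is 1 resistant population, so the drug and the particular population selected cannot be told apart. The p-values measure only the spread between the 2 replicates within a population, pooled over the populations in the fit, parental cells included. The labels call these replicates biological.

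ERBB receptors bind ligands such as amphiregulin and TGF-alpha and drive the RAS, ERK and PI3K pathways, which in squamous cells sustain growth and the immediate transcriptional targets of ERK. Squamous epithelial cells are held together by cadherins, desmosomes and keratins under transcription factors such as p63, OVOL1 and GRHL2. In the epithelial to mesenchymal transition (EMT) these are replaced by vimentin, N-cadherin and matrix proteins, and ZEB1, ZEB2, TWIST1 and SNAI2 are transcription factors known for that switch.

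The 6 Cal27 libraries held 16334937 to 16689855 counts on genes. Squamous epithelial markers were detected in both derivatives, whereas CD3D, CD3E, MS4A1 and MZB1 had 0 counts in the AfaR and ErlR libraries, and the summed immune marker list lay between 17.3 and 22.3 CPM (TMM-scaled counts relative to library size, the usual CPM unit) in all 4. In a principal component plot of the Cal27 libraries the first component took 71.6% of the variance, with the AfaR libraries at 57.0 and 53.4 and the ErlR libraries at -39.7 and -36.0. The parental libraries lay at -21.2 and -13.5 on it, between the derivatives and closer to ErlR. Of the other marker lists, 2 of 7 melanocyte and neural markers tested were higher in AfaR (ENO2 and MAP2, with TYR and SOX10 at 0 counts), and of 2 endothelial markers tested CDH5 was higher, at a level close to that of parental cells.

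AfaR and ErlR differed in a large share of the transcriptome. Of 15269 genes tested, 2782 were higher in AfaR (18.2%) and 1353 were lower (8.86%) at an adjusted p under 0.05 and a change of more than 2-fold (edgeR quasi-likelihood test with Benjamini-Hochberg adjustment). The excess of higher over lower genes was larger among big changes, with 863 genes higher and 160 lower by more than 3 on the log2 scale. The median log2 fold change over all genes tested was 0.03, and upper-quartile scaling moved it to 0.12. A filter of 10 counts in each library left 1805 higher and 1005 lower genes, and a test against a 2-fold limit left 1615 and 574. All log2 fold changes below are AfaR against ErlR, positive where AfaR was higher, and are given ± SE.

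The gene lists followed separate directions. Their counts below stand beside shares of 18.2% higher and 8.86% lower over all genes tested. Members of the interferon, antigen presentation, matrix and mesenchymal lists were mostly higher in AfaR. Members of the squamous marker, epithelial regulator and ribosome biogenesis lists were mostly lower, and those of the ERK output list were more often lower than higher. The ERBB ligand list was split, and mitotic, BCL2 family, YAP and TEAD, and RAS, ERK and PI3K effector genes were mostly not called.

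**Figure D1:**
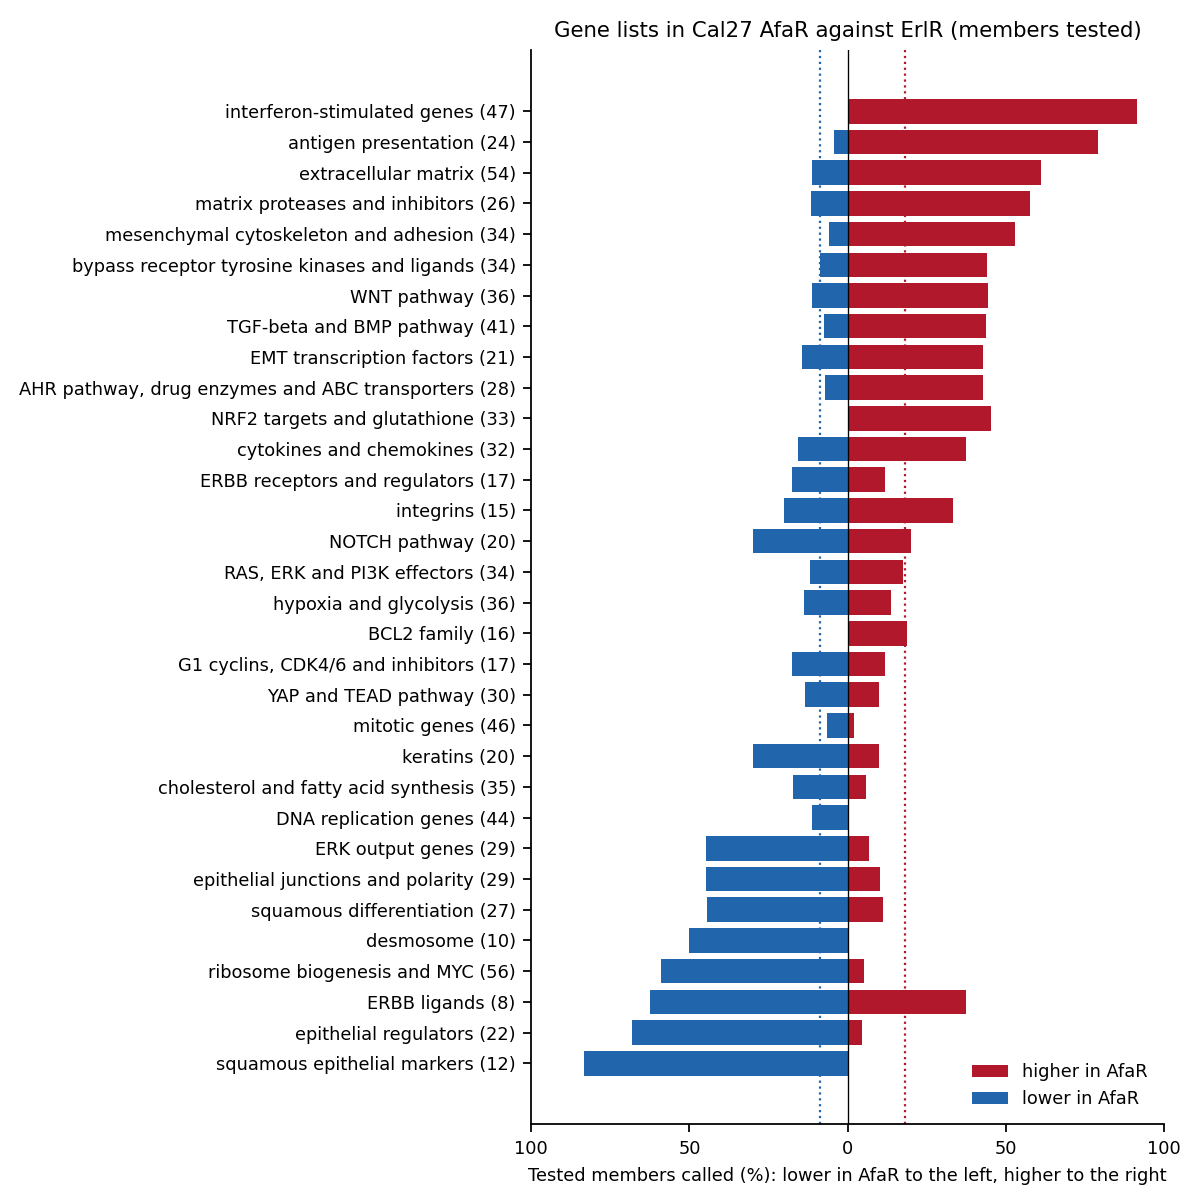
Share of tested members (x axis, percent) called higher (red, right) or lower (blue, left) in Cal27 AfaR than in ErlR for each gene list with 8 or more members tested, ordered by median log2 fold change; the number tested is in brackets. Dotted lines mark the shares over all 15269 genes, 18.2% higher and 8.86% lower; interferon-stimulated genes reached 91.5% higher and squamous epithelial markers 83.3% lower.

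Squamous epithelial identity genes were low in AfaR. Of 12 markers, 10 were called lower, none was higher, and the median log2 fold change was -2.77. KRT5, the basal keratin, stood at 437 and 319 CPM in the AfaR libraries, 2942 and 3136 in ErlR and 2954 and 2071 in parental cells. TP63, which encodes the squamous master regulator p63, stood at 27.3 and 16.9 CPM in AfaR, 374 and 414 in ErlR and 238 and 232 in parental cells. Both AfaR libraries were below all others for the 2 genes, and the ErlR libraries were at or above the parental level. The log2 fold change was -3.01 ± 0.22 for KRT5 (adjusted p = 1.14e-05) and -4.15 ± 0.22 for TP63 (adjusted p = 2.23e-06). Integrin beta 4 (ITGB4), which anchors hemidesmosomes, was lower as well, at 172 and 100.5 CPM against 1000.5 and 950.0 (-2.84 ± 0.26, adjusted p = 3.46e-05).

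Cell adhesion genes followed. CDH1, which encodes E-cadherin, stood at 79.9 and 65.9 CPM in AfaR, 238 and 251 in ErlR and 359.9 and 423 in parental cells. Each AfaR library lay below every ErlR library, which in turn lay below the parental ones, and the AfaR to ErlR difference was -1.75 ± 0.15 (adjusted p = 2.48e-05). EPCAM, an epithelial adhesion molecule, stood at 30.9 and 32.3 CPM against 197 and 216 (-2.71 ± 0.13, adjusted p = 1.43e-06), with ErlR near the parental 228 and 226. Of 29 genes for epithelial junctions and polarity, 13 were lower and 3 higher (median -0.80), and of 10 desmosome genes 5 were lower and none higher (median -1.10). The desmosomal plaque genes DSP (-1.51 ± 0.15, adjusted p = 5.21e-05) and PKP3 (-2.04 ± 0.16, adjusted p = 1.53e-05) fell. Desmocollin DSC3 did not pass, at 57.8 and 42.2 CPM against 49.6 and 34.8 (0.25 ± 0.22, adjusted p = 0.389). The 3 junction genes that went the other way were the claudins CLDN1 and CLDN3 and the scaffold TJP3, of which CLDN3 and TJP3 were below 6 CPM in all 4 libraries. CLDN1, at 474 and 448 CPM against 193 and 265 in ErlR and 888 and 1368 in parental cells, rose against ErlR (1.01 ± 0.22) but lost its call with all 12 libraries in the fit (0.98, adjusted p = 0.0634).

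Keratins did not move as a block. Of 20 tested, 6 were lower (30.0%) and 2 higher (10.0%), beside 8.86% and 18.2% over all genes, with a median of -0.42. KRT6A, a keratin of activated keratinocytes, was at 4.04 and 3.66 CPM in AfaR and 299 and 83.5 in ErlR. The ErlR libraries differed from each other by more than 3 times, and the difference of -5.63 ± 0.64 became -4.44 without ErlR replicate 1 and -6.30 without ErlR replicate 2. KRT6B (-3.24 to -6.57 when a library was left out) and KRT6C were lower too, and since KRT6A, KRT6B and KRT6C are near-identical copies their reads may be shared. KRT8, a simple-epithelial keratin, was higher in AfaR than in ErlR, at 1038 and 1058 CPM against 288 and 583 (1.27 ± 0.29, adjusted p = 0.00559), though not in a test against a 2-fold limit (adjusted p = 0.308). The parental libraries, at 1552 and 1117 CPM, lay above both derivatives, and ErlR was the lowest. KRT17 differed by 0.65 ± 0.21 (adjusted p = 0.0258), within the 2-fold limit.

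Regulators of epithelial fate, a list of transcription factors with 2 splicing regulators and a microRNA host transcript among others, were mostly lower in AfaR, with 15 of 22 lower and 1 higher (median -2.16). The splicing regulator ESRP1, which sets epithelial isoforms, stood at 9.43 and 8.39 CPM in AfaR and 105 and 130.1 in ErlR (-3.72 ± 0.16, adjusted p = 1.34e-06). GRHL2, which maintains junction genes, stood at 9.99 and 10.5 CPM and 98.4 and 114 (-3.37 ± 0.16, adjusted p = 1.43e-06), and OVOL1, a repressor of mesenchymal genes, at 0.449 and 0.539 and 11.7 and 14.3 (-4.70 ± 0.31, adjusted p = 6.83e-06). The groups were apart for all 3, and ErlR stayed near or above the parental values of 117 and 111, 73.3 and 86.3 and 9.91 and 8.60 CPM. MIR205HG, the host transcript of miR-205, fell in the same direction (-3.76 ± 0.30). Squamous differentiation genes were lower in 12 of 27 and higher in 3, but the lower count was 6 to 13 when a library was left out, being 6 without AfaR replicate 2 and 7 without ErlR replicate 1. The calmodulin-like CALML3 (1.74 and 0.959 against 48.8 and 60.8 CPM, -5.33 ± 0.28) was among those lower, and the membrane mucin MUC1 (23.6 and 14.3 against 1.36 and 1.37 CPM, 3.79 ± 0.37) was higher.

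ZEB and SNAI proteins are known to bind the E-box with the letters CAGGTG in promoters of epithelial genes. The promoters of RAB25, which encodes an epithelial trafficking GTPase, and of CRB3, an apical polarity protein, are shown because both genes fell and both hold that motif on one strand or the other, in capitals. Each is the 250 bases before the RefSeq gene start on GRCh38.p14, 5′ to 3′ on the plus strand, at chr1:156060910-156061159 and chr19:6464021-6464270.
RAB25: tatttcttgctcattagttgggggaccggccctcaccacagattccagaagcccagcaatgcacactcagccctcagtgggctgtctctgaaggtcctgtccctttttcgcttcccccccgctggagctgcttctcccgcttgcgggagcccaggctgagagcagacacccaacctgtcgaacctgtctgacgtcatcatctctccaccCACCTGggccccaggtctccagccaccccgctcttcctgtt
CRB3: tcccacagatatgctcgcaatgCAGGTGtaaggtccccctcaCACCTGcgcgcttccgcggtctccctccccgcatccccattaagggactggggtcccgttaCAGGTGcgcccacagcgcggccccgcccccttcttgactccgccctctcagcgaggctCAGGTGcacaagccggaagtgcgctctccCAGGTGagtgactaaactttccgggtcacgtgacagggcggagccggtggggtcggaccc
RAB25 held 1 match, starting 41 bases before the gene start, and CRB3 held 5, the nearest at 60 bases. RAB25 stood at 2.02 and 1.44 CPM in AfaR and 17.1 and 23.6 in ErlR (-3.55 ± 0.29, adjusted p = 1.87e-05), and CRB3 at 2.19 and 2.58 and 13.8 and 15.4 (-2.61 ± 0.22, adjusted p = 2.21e-05). The motif was in 6 of the 15 junction and polarity promoters found in the table and in 4 of 10 desmosome promoters, against 16.2% of the 11242 promoters of genes tested. It was in 2 of 15 promoters of the epithelial regulators. Of other genes that fell, DSP held 2 matches in its window, and the windows of PKP1 and JUP held none. No promoter window was available for CDH1 or EPCAM. A match is a description of the letters and not a bound site.

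EMT transcription factors split by member. ZEB1 stood at 16.1 and 16.9 CPM in AfaR, 0.974 and 0.622 in ErlR and 0.300 and 0.485 in parental cells (4.36 ± 0.33, adjusted p = 1.27e-05). ZEB2 stood at 35.2 and 27.0 against 2.47 and 2.05 CPM (3.78 ± 0.24, adjusted p = 5.85e-06) and TWIST1 at 56.3 and 48.5 against 3.96 and 4.79 CPM (3.58 ± 0.19, adjusted p = 2.31e-06). All 3 were high only in the AfaR libraries, with ErlR close to the parental values. SNAI2, which encodes Slug, went the other way within the 2-fold limit, at 61.6 and 68.3 CPM against 127 and 89.8 (-0.74 ± 0.17, adjusted p = 0.00607). Parental libraries, at 33.9 and 31.2 CPM, lay below both derivatives, so SNAI2 was above the parental level in AfaR and more so in ErlR. HMGA2, a chromatin protein active in invasive cells, fell from 645 and 395 CPM in ErlR to 68.4 and 74.6 in AfaR, a log2 fold change of -2.86 ± 0.22 (adjusted p = 1.41e-05), with parental libraries at 207 and 191. In all, 9 of 21 were higher and 3 lower, with a median of 0.87.

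Vimentin, the intermediate filament of mesenchymal cells, gave a wide separation of the derivatives. VIM stood at 1167 and 1311 CPM in the AfaR libraries, 25.7 and 22.6 in ErlR and 23.7 and 22.7 in parental cells. It was high in AfaR alone, and the ErlR and parental values overlapped. The difference was 5.68 ± 0.16 (adjusted p = 3.07e-07). On a per-length scale (RPKM, CPM divided by gene length in kilobases) the mean level of VIM was 240.2 in AfaR and 4.68 in ErlR, while KRT5 was 88.1 in AfaR and 708 in ErlR, so the order of these 2 genes was opposite in the derivatives. CDH2, which encodes N-cadherin, stood at 165 and 178 CPM in AfaR, 17.7 and 20.8 in ErlR and 57.9 and 56.3 in parental cells (3.16 ± 0.14, adjusted p = 1.34e-06). CDH11, a cadherin of mesenchymal cells, stood at 18.3 and 13.2 against 0.130 and 0.249 CPM (6.31 ± 0.42, adjusted p = 6.56e-06), and myosin light chain kinase MYLK at 476 and 385 against 10.8 and 19.0 (4.85 ± 0.27, adjusted p = 2.65e-06). Of 34 mesenchymal cytoskeleton and adhesion genes, 18 were higher and 2, NT5E and CAV1, were lower (median 1.21). NT5E, the ecto-enzyme CD73, fell from 548 and 438 to 145 and 106 CPM (-1.98 ± 0.26, adjusted p = 0.000267).

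**Figure D2:**
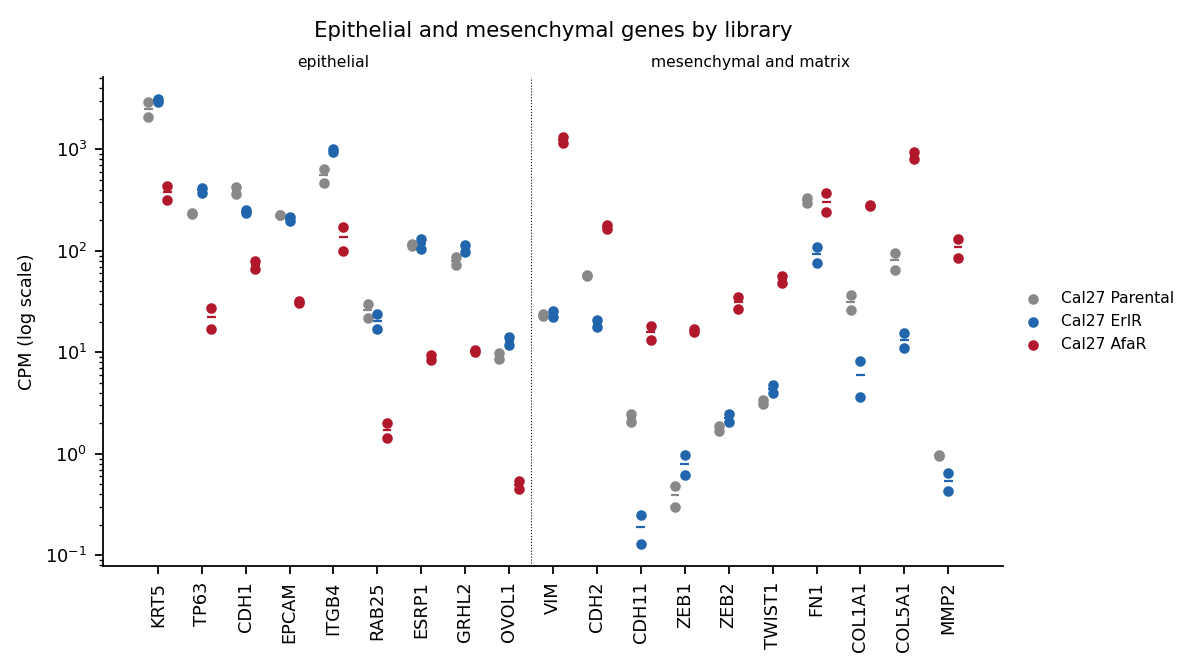
CPM (y axis, log scale) of 9 epithelial and 10 mesenchymal or matrix genes in each of the 6 Cal27 libraries; points are libraries and short lines are group means. AfaR (red) lies below ErlR (blue) for every epithelial gene shown and above it for every mesenchymal gene shown, with VIM at 1167 and 1311 CPM against 25.7 and 22.6.

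Matrix genes made up one of the largest blocks, with 33 of 54 higher and 6 lower (median 1.82). COL5A1, a fibrillar collagen chain, stood at 939.7 and 799 CPM in AfaR, 11.0 and 15.5 in ErlR and 65.1 and 95.8 in parental cells (6.03 ± 0.26, adjusted p = 1.34e-06). COL1A1, the main chain of type I collagen, stood at 276 and 282 CPM in AfaR and 3.64 and 8.20 in ErlR. The parental libraries, at 26.2 and 36.8, lay between the derivatives, and the difference of 5.55 ± 0.33 became 6.23 without ErlR replicate 2. VCAN, a large proteoglycan (5.48 ± 0.28), FBN1, the fibrillin of microfibrils (6.18 ± 0.22), and COL6A2, a microfibrillar collagen (6.20 ± 0.24), rose with them. LAMB3, a laminin-332 chain of the epithelial basement membrane, fell, at 349 and 358 CPM against 1687 and 961 (-1.90 ± 0.23, adjusted p = 0.000186). Fibronectin (FN1) stood at 369.7 and 242 CPM in AfaR and 110.2 and 75.6 in ErlR (1.72 ± 0.23, adjusted p = 0.000317), and the parental libraries, at 297 and 333, overlapped AfaR and lay above ErlR.

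Of 26 genes for matrix proteases, their inhibitors and the urokinase receptor, 15 were higher in AfaR and 3 were lower (median 1.66). The higher members included 3 inhibitors, TIMP2, TIMP3 and TIMP4. TIMP2, an inhibitor of metalloproteinases, stood at 585 and 485 CPM in AfaR, 16.2 and 26.9 in ErlR and 84.1 and 99.2 in parental cells (4.63 ± 0.25, adjusted p = 2.25e-06). MMP2, the type IV collagenase, stood at 132 and 84.8 CPM in AfaR, 0.650 and 0.435 in ErlR and 0.961 and 0.969 in parental cells. Its difference of 7.63 ± 0.32 (adjusted p = 1.21e-06) was the largest of those that met the abundance limits for naming genes (average of 5 CPM or more over the 4 libraries, and 10 counts or more in the lower group). PLAU, the urokinase gene, stood at 852 and 824 against 302 and 252 CPM (1.60 ± 0.14, adjusted p = 3.16e-05). MMP14, at 216 and 174 against 272 and 173 CPM, did not pass (-0.19 ± 0.21, adjusted p = 0.463). Integrin chains split. ITGA5, the fibronectin receptor chain, rose (220.5 and 276 against 97.6 and 75.2 CPM, 1.52 ± 0.17), as did ITGAV (1.71 ± 0.15). The laminin and collagen receptor chains ITGA6 (143 and 143 against 653 and 402 CPM, -1.88 ± 0.21) and ITGA2 (-2.56 ± 0.26) fell. Of 15 chains tested 5 were higher (33.3%) and 3 lower (20.0%), beside 18.2% and 8.86% over all genes. Fibroblast markers overlap the matrix list. Of 10 such markers 5 were tested and 4 were higher, their summed level being 340.0 and 325.2 CPM in AfaR and 5.65 and 11.1 in ErlR, while DCN had at most 0.12 CPM and PDGFRA at most 0.065 CPM in any of the 4 libraries.

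The genes with the largest differences came partly from these groups. Beside MMP2, COL6A2 and FBN1, the higher genes were EDIL3, a secreted integrin ligand (731 and 597 against 3.64 and 7.15 CPM, 6.94 ± 0.44), TP53I11 (58.5 and 60.5 against 0.715 and 0.373 CPM, 6.76 ± 0.26) and DIO2, the enzyme that activates thyroid hormone (131 and 131 against 0.455 and 1.18 CPM, 7.30 ± 0.62, and 8.12 without ErlR replicate 2). Beside KRT6A, CALML3 and KRT6B, the lower genes were ZBED2, a transcription factor of keratinocytes (0.281 and 0.480 against 24.9 and 29.1 CPM, -6.14 ± 0.31), the GABA transporter SLC6A11 (0.393 and 0.180 against 12.7 and 15.4 CPM, -5.56 ± 0.37, and -6.23 without AfaR replicate 1) and the adhesion molecule DSCAM (-5.10 ± 0.50, and -4.47 without ErlR replicate 1 or -6.00 without AfaR replicate 2). For 31 genes AfaR reached a mean of 5 CPM or more while ErlR held at most 3 counts in total, and no gene met the reverse condition. ALX4, a homeobox gene, had 901 counts in AfaR and 3 in ErlR, a ratio of 274 with a 95% counting interval of 93.5 to 1332. UGT8, which makes galactosylceramide, had 722 and 3 counts (ratio 219.6, interval 74.9 to 1068), and the neurotrophin NTF3 had 393 and 2 (ratio 179, interval 49.3 to 1486). SSC5D had 467 counts in AfaR and 0 in ErlR, at least 142-fold higher against a floor of 3 counts over the group. These intervals and the floor cover counting error only.

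EGFR, the target of both drugs, was lower in AfaR. It stood at 744 and 736 CPM in AfaR, 1674 and 1395 in ErlR and 1366 and 1336 in parental cells. Both AfaR libraries were below all others, and ErlR was near the parental level (-1.05 ± 0.14, adjusted p = 0.000322). The change sat close to 2-fold and did not pass a test against that limit (adjusted p = 0.583). ERBB2, which encodes HER2, did not pass, at 64.0 and 54.8 CPM against 51.2 and 50.3 (0.23 ± 0.14, adjusted p = 0.212). ERBB3, the kinase-impaired partner receptor, fell (12.8 and 7.19 against 22.9 and 32.9 CPM, -1.48 ± 0.32, adjusted p = 0.00403), though not against a 2-fold limit (adjusted p = 0.138). Of 17 receptors and regulators 2 were higher and 3 lower (median 0.23), shares of 11.8% and 17.6% beside 18.2% and 8.86% over all genes.

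All 8 ERBB ligands tested were called, 5 lower (62.5%) and 3 higher (37.5%) in AfaR, beside 8.86% and 18.2% over all genes. AREG, which encodes amphiregulin, stood at 4.77 and 5.21 CPM in AfaR, 117 and 59.6 in ErlR and 37.4 and 26.2 in parental cells (-4.14 ± 0.34, adjusted p = 1.93e-05). TGFA stood at 14.2 and 15.5 against 174 and 91.4 CPM (-3.16 ± 0.30, adjusted p = 4.16e-05) and HBEGF at 5.78 and 11.3 against 98.9 and 51.8 (-3.15 ± 0.36, adjusted p = 0.000128). For AREG and TGFA both AfaR libraries were below the parental ones and both ErlR libraries above them. ErlR replicate 1 was the higher of its pair for all 3. EREG, which encodes epiregulin, fell too (51.2 and 53.3 against 135 and 103 CPM, -1.19 ± 0.15), and NRG1, a neuregulin, lost its call without AfaR replicate 1 (-0.88, adjusted p = 0.14) and without ErlR replicate 2 (-1.04, adjusted p = 0.0589). The ligands that rose, EGF, BTC and NRG2, were all below 6 CPM in every library, and NRG2 lost its call when any of 3 of the 4 libraries was left out (adjusted p = 0.0975 to 0.177). The summed ligand level was 114 and 150.0 CPM in AfaR, 613 and 434 in ErlR and 374 and 286 in parental cells.

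Genes that ERK signalling is known to induce were more often lower than higher in AfaR, with 13 of 29 lower and 2 higher (median -0.71). DUSP6, an ERK phosphatase, stood at 8.98 and 10.7 CPM in AfaR, 78.5 and 74.0 in ErlR and 19.9 and 15.7 in parental cells (-2.96 ± 0.18, adjusted p = 3.74e-06). SPRY4, a feedback inhibitor, stood at 2.75 and 2.40 against 29.5 and 19.8 CPM (-3.25 ± 0.27, adjusted p = 2.07e-05), and the factor ETV4 at 11.7 and 13.6 against 63.0 and 67.8 (-2.37 ± 0.18, adjusted p = 1.41e-05). For DUSP6 and SPRY4 the ErlR libraries were above the parental ones and the AfaR libraries below. PHLDA1 stood at 223 and 206 CPM in AfaR, 551 and 531 in ErlR and 186 and 145 in parental cells, so both derivatives were above parental cells and ErlR was the highest (-1.33 ± 0.15, adjusted p = 0.000114). SPRY2 differed in the other direction within the 2-fold limit (19.6 and 22.2 against 13.8 and 12.8 CPM, 0.65 ± 0.18, adjusted p = 0.012). EGR1, an immediate early factor, fell (-2.66 ± 0.52) with replicates that differed widely (43.1 and 133 against 317 and 794 CPM), and the value ranged from -1.88 without ErlR replicate 2 to -3.69 without AfaR replicate 2.

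Upstream of ERK, NRAS and HRAS were lower in AfaR. NRAS stood at 134 and 164 CPM in AfaR, 676 and 620.4 in ErlR and 130.3 and 123 in parental cells (-2.12 ± 0.14, adjusted p = 7.6e-06). It was high in the ErlR libraries alone. HRAS fell too (34.4 and 41.3 against 115 and 101 CPM, -1.51 ± 0.18, adjusted p = 0.000189). The related GTPases MRAS (35.0 and 27.0 against 1.23 and 1.37 CPM, 4.57 ± 0.29) and RRAS (79.8 and 70.0 against 24.5 and 23.1 CPM, 1.65 ± 0.14) were higher in AfaR, as were the kinase genes PRKCA (2.95 ± 0.16) and PIK3CD (2.68 ± 0.15). In all, 6 of 34 effectors were higher and 4 lower, shares of 17.6% and 11.8% beside 18.2% and 8.86% over all genes.

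Other receptor tyrosine kinases and their ligands were higher in 15 of 34 and lower in 3 (median 0.93). FGFR1, a fibroblast growth factor receptor, stood at 70.5 and 67.3 CPM in AfaR, 1.04 and 1.49 in ErlR and 1.02 and 0.969 in parental cells (5.75 ± 0.22, adjusted p = 8.05e-07). It was high in AfaR alone. FGFR2 went the other way (-1.42 ± 0.21, adjusted p = 0.000495), though not against a 2-fold limit (adjusted p = 0.0608). PDGFRB, a receptor of mesenchymal cells, stood at 13.2 and 12.2 against 0.0650 and 0.559 CPM (5.30 ± 0.52, and 4.49 without ErlR replicate 1 or 7.43 without ErlR replicate 2), and the insulin receptor INSR at 28.6 and 23.1 against 1.75 and 1.86 (3.83 ± 0.37, adjusted p = 5.21e-05). MET, the hepatocyte growth factor receptor, did not pass (375 and 398 against 413 and 407 CPM, -0.09 ± 0.13, adjusted p = 0.602). AXL was abundant in both, at 1335 and 1477 CPM in AfaR and 901 and 862 in ErlR, and differed within the 2-fold limit (0.67 ± 0.19, adjusted p = 0.0146), with parental cells at 537 and 357. On the per-length scale the mean FGFR1 level in AfaR was 5.42 RPKM, beside 59.1 for EGFR and 54.9 for MET in the same libraries.

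**Figure D3:**
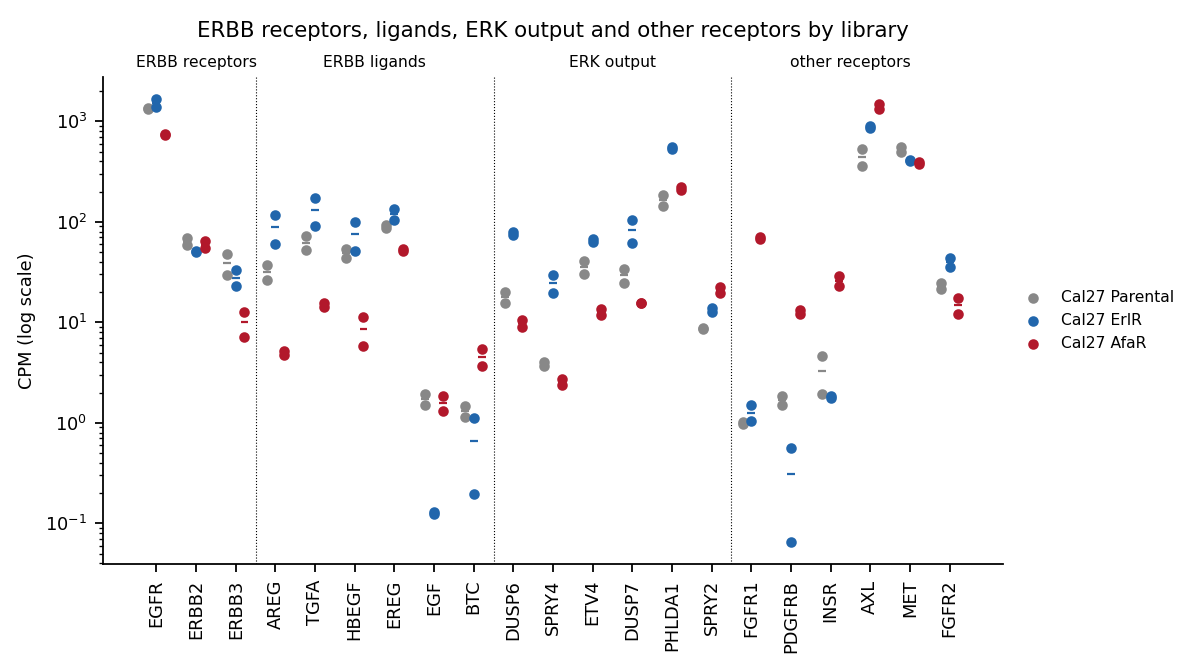
CPM (y axis, log scale) of ERBB receptors, ERBB ligands, ERK output genes and other receptor genes in each of the 6 Cal27 libraries; points are libraries and short lines are group means. AREG, TGFA, DUSP6 and SPRY4 are lowest in AfaR (red), while FGFR1, at 70.5 and 67.3 CPM in AfaR, lies under 2 CPM in every ErlR and parental library.

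Interferon-stimulated genes, which cells switch on after interferon receptors are engaged and which bear antiviral functions, moved together. All 47 were tested, all 47 had a positive log2 fold change with an adjusted p under 0.05, and 43 passed the 2-fold limit, with a median of 2.26. Over all genes tested, non-overlapping libraries were found in 76.6%, and in this list in all 47. Without 1 library the number called ranged from 36 to 45. The summed level was 8992 and 6177 CPM in AfaR, 2043 and 1943 in ErlR and 2575 and 3112 in parental cells, so AfaR replicate 1 was the higher of its pair.

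Promoters of 3 of these genes are shown because they hold the core of the interferon-stimulated response element, the letters GAAANNGAA (TTCNNTTTC on the other strand), in capitals. Each is the 250 bases before the RefSeq gene start on GRCh38.p14, 5′ to 3′ on the plus strand, at chr10:89392373-89392622 for IFIT1, chr1:78620198-78620447 for IFI44L and chr2:6865635-6865884 for RSAD2.
IFIT1: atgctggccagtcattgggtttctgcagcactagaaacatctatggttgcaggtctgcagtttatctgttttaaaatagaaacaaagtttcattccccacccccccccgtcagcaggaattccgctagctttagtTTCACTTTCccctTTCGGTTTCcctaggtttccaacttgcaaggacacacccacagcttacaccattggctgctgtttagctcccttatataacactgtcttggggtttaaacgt
IFI44L: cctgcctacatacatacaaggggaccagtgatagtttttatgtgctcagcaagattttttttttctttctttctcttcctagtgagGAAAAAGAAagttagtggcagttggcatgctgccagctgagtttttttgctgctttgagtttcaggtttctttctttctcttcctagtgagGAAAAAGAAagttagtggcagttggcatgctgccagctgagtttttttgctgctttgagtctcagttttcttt
RSAD2: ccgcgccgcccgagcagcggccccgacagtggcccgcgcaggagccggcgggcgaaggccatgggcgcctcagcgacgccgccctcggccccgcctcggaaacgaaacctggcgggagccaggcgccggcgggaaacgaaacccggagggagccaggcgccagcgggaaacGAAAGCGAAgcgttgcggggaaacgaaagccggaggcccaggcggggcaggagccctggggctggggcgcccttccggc
IFIT1 held matches starting 115 and 102 bases before its gene start, IFI44L at 164 and 73 bases, and RSAD2 at 79 bases. The motif was in 23 of the 37 interferon-stimulated promoters found in the table (62.2%) and in 10 of 18 antigen presentation promoters (55.6%), against 5.56% of the 11242 promoters of genes tested and 7.06% of all 27305 in the table. The windows of MX1 and XAF1 held no match with these letters.

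Single members had AfaR well above the rest. IFI44L stood at 147 and 74.0 CPM in AfaR, 3.77 and 2.98 in ErlR and 1.80 and 1.03 in parental cells (5.03 ± 0.36, adjusted p = 1.01e-05). IFIT1, which binds foreign RNA, stood at 213 and 114 against 9.94 and 20.1 CPM (3.44 ± 0.39, adjusted p = 0.000126), and the dynamin-like antiviral GTPase MX1 at 674 and 431 against 62.1 and 45.8 (3.36 ± 0.24, adjusted p = 9.06e-06). Both AfaR libraries were above all others for the 3 genes, and AfaR replicate 1 was the higher of its pair. RSAD2, which encodes viperin, stood at 31.9 and 14.6 against 1.04 and 0.870 CPM (4.60 ± 0.48, and 3.92 without AfaR replicate 1). The call of IFI27 rested on AfaR replicate 1 (452 and 326 against 203 and 80.9 CPM, 1.45 ± 0.36, and 1.20 with adjusted p = 0.0772 without AfaR replicate 1). Of the 22 type I, II and III interferon genes themselves, looked up after these values were seen, none had more than 7 counts in any AfaR or ErlR library.

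Antigen presentation genes were higher in 19 of 24 and lower in 1 (median 1.98), and the class II genes led. HLA-DRA, the alpha chain of HLA-DR, stood at 173 and 142 CPM in AfaR, 4.16 and 2.67 in ErlR and 12.1 and 15.2 in parental cells (5.53 ± 0.24, adjusted p = 1.34e-06). HLA-DPA1 stood at 58.3 and 48.4 against 0.844 and 1.06 CPM (5.80 ± 0.25, adjusted p = 1.34e-06). CIITA, the transactivator of class II genes, stood at 17.6 and 9.53 against 1.04 and 1.86 CPM (3.22 ± 0.40, adjusted p = 0.000201). For these genes the parental libraries lay between ErlR and AfaR. B2M, the light chain shared by class I molecules, stood at 1447 and 1517 against 799 and 609 CPM (1.07 ± 0.17, adjusted p = 0.000692), though not against a 2-fold limit (adjusted p = 0.541). HLA genes are close copies of each other, so reads may be shared among them. CD274, which encodes the checkpoint ligand PD-L1, was the member that fell, at 7.18 and 10.7 CPM in AfaR, 50.4 and 26.2 in ErlR and 11.3 and 13.5 in parental cells (-2.10 ± 0.31, adjusted p = 0.000591).

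**Figure D4:**
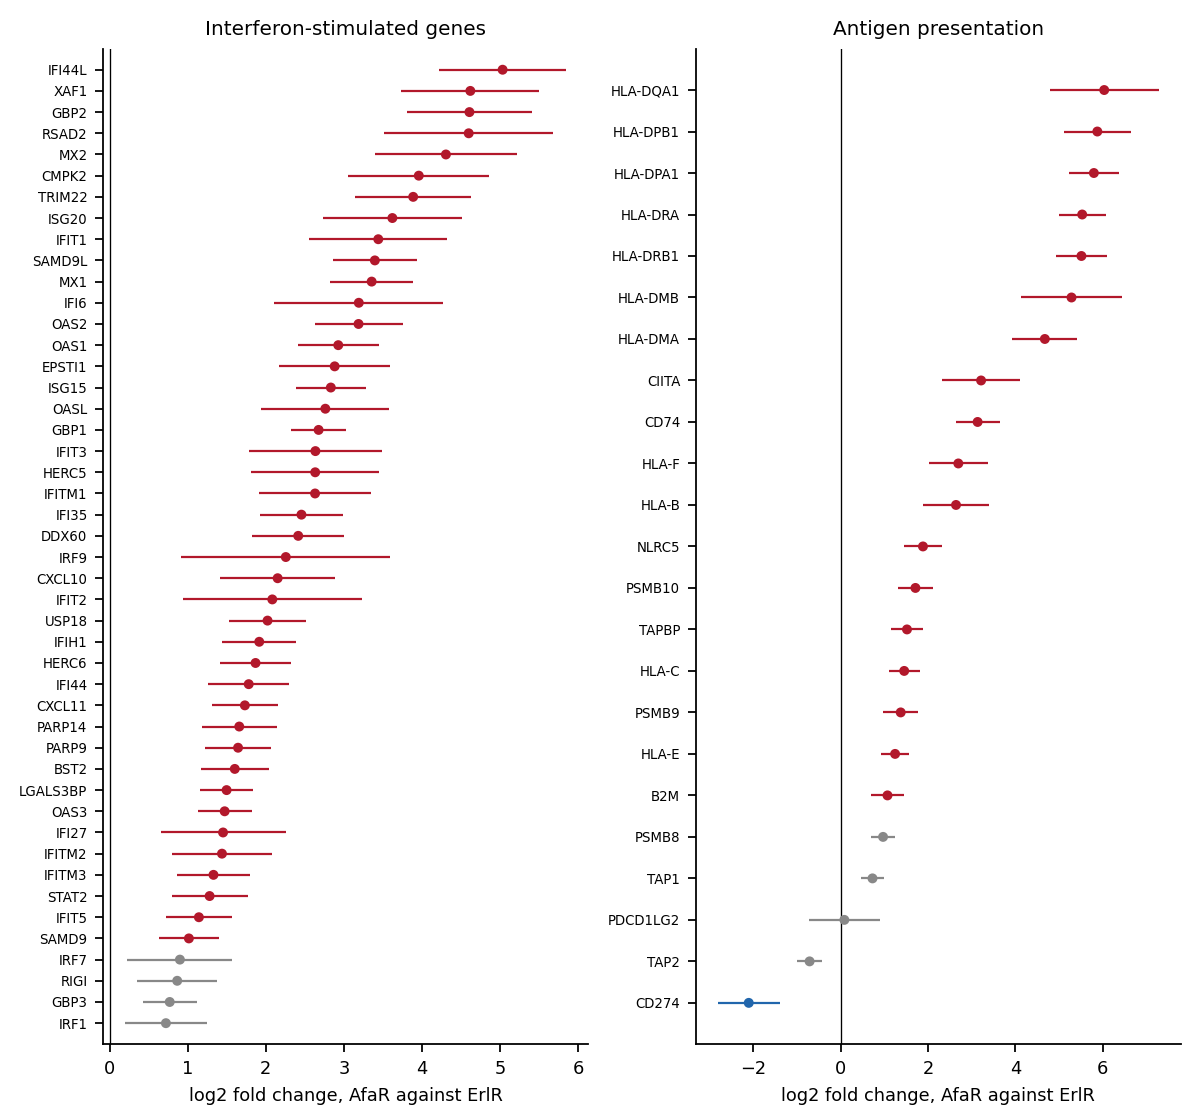
Log2 fold change of AfaR against ErlR (x axis) for interferon-stimulated genes (left) and antigen presentation genes (right); points are estimates, bars are 95% confidence intervals, red is called higher, blue called lower and grey not called. All interferon-stimulated genes shown lie above 0, and CD274 is the antigen presentation gene called lower.

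Cytokine genes did not share 1 direction (12 of 32 higher, 5 lower, median 0.63). These shares were 37.5% and 15.6%, beside 18.2% and 8.86% over all genes. IL1A, an alarm cytokine of keratinocytes, stood at 8.70 and 11.3 CPM in AfaR, 174 and 176 in ErlR and 404 and 412 in parental cells (-4.13 ± 0.16, adjusted p = 8.26e-07). IL1B was lower too (27.9 and 35.2 against 186 and 217 CPM, -2.67 ± 0.16, adjusted p = 3.74e-06). For both, each derivative was below parental cells and AfaR was the lowest. CCL2, a monocyte chemokine, stood at 121 and 114 CPM in AfaR, 5.98 and 4.04 in ErlR and 68.6 and 143 in parental cells (4.56 ± 0.35, adjusted p = 1.44e-05). AfaR was at the parental level here and ErlR was low. The growth factor CSF1 was higher in AfaR (297 and 269 against 27.9 and 38.1 CPM, 3.10 ± 0.40), as was IL6 (219.8 and 222 against 11.4 and 36.7 CPM, 3.20 ± 0.45, and 2.58 without ErlR replicate 1 or 4.24 without ErlR replicate 2). PTGS2, the inducible cyclooxygenase, stood at 46.0 and 49.0 against 4.87 and 5.59 CPM (3.18 ± 0.39, adjusted p = 0.000204).

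Several ligands of the TGF-beta family were higher in AfaR. TGFB1 stood at 182 and 166 CPM in AfaR, 56.1 and 56.6 in ErlR and 39.6 and 36.6 in parental cells (1.63 ± 0.13, adjusted p = 1.44e-05), and TGFB2 at 476 and 402 against 35.1 and 39.8 (3.55 ± 0.16, adjusted p = 1.34e-06). BMP4 stood at 73.6 and 54.2 against 0.844 and 1.37 CPM (5.84 ± 0.31, adjusted p = 2.14e-06). The groups were apart for each, with the order AfaR, ErlR and parental cells for TGFB1. The receptor TGFBR1 rose (1.49 ± 0.17), while the activin antagonist FST (50.8 and 52.7 against 594 and 348 CPM, -3.19 ± 0.29) and the activin subunit INHBA (-1.84 ± 0.30) fell, and the feedback targets SMAD7 (-0.66 ± 0.29, adjusted p = 0.0844) and ID1 (0.59 ± 0.40, adjusted p = 0.245) did not pass. Of 41 genes tested in this list 18 were higher and 3 lower (median 0.91). The lower ones were FST, INHBA and TGFA, and TGFA is an ERBB ligand already counted above rather than a TGF-beta pathway gene.

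WNT genes were higher in 16 of 36 and lower in 4 (median 0.92). WNT5A, a non-canonical ligand, stood at 98.1 and 80.0 CPM in AfaR and 6.11 and 5.84 in ErlR (3.90 ± 0.60, adjusted p = 0.000715), and the Frizzled receptor gene FZD7 at 122 and 144 against 24.8 and 21.7 (2.52 ± 0.15, adjusted p = 3.52e-06). The epithelial ligand WNT7A fell (3.87 and 3.66 against 61.3 and 52.8 CPM, -3.92 ± 0.22, adjusted p = 2.62e-06). AXIN2, a feedback target of canonical signalling, rose from a very low level (2.75 and 1.08 against 0.130 and 0.0622 CPM, 4.23 ± 0.84, and 3.40 without AfaR replicate 1). Among 20 NOTCH genes 4 were higher and 6 lower (median 0.004). These shares were 20.0% and 30.0%, beside 18.2% and 8.86% over all genes, so the higher share was near that of all genes. The ligands JAG2 (30.1 and 20.3 against 159 and 154 CPM, -2.63 ± 0.19) and DLL1 (-2.12 ± 0.22) fell, the glycosyltransferase LFNG rose (1.87 ± 0.20), and the receptor NOTCH1 did not pass (-0.09 ± 0.17, adjusted p = 0.688). Among 30 YAP and TEAD genes 3 were higher (10.0%) and 4 lower (13.3%), beside 18.2% and 8.86% over all genes (median -0.18). CCN1, a standard target, did not pass (987 and 1311 against 878 and 1087 CPM, 0.23 ± 0.17, adjusted p = 0.3).

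Genes of ribosome assembly and MYC were mostly lower in AfaR. MYC stood at 85.8 and 107 CPM in AfaR, 385 and 402 in ErlR and 435 and 379 in parental cells (-2.03 ± 0.15, adjusted p = 1.32e-05). Of 56 genes in this list 33 were lower and 3 higher (median -1.13), and 49 were lower at an adjusted p under 0.05 at any fold, so many changes sat near the 2-fold limit and a test against it left 14. DKC1, which modifies ribosomal RNA, stood at 101 and 129 against 505 and 402 CPM (-1.98 ± 0.18, adjusted p = 3.03e-05), and BOP1, a large-subunit assembly factor, at 67.0 and 86.2 against 297 and 251 (-1.84 ± 0.18, adjusted p = 4.71e-05). Nucleolin (NCL) differed within the limit (-0.88 ± 0.15, adjusted p = 0.00118). MXD4, an antagonist of MYC, was higher (58.9 and 49.5 against 4.68 and 3.79 CPM, 3.68 ± 0.26, adjusted p = 9.06e-06). The related gene MXD1 was called lower, and other MYC network members of the list were called in both directions. The summed level was 6713 and 7799 CPM in AfaR, 15549 and 13644 in ErlR and 12351 and 10233 in parental cells.

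Cell cycle genes mostly differed within the 2-fold limit or did not pass. Of 46 mitotic genes 1 was higher (2.17%) and 3 were lower (6.52%), beside 18.2% and 8.86% over all genes (median -0.28). At an adjusted p under 0.05 at any fold, 18 mitotic genes were lower and 2 higher. AURKA, the mitotic kinase, differed within the 2-fold limit (156 and 222 against 311 and 322 CPM, -0.74 ± 0.17, adjusted p = 0.00561). Its activator TPX2 (-0.42 ± 0.20, adjusted p = 0.106) and the checkpoint kinase WEE1 (-0.28 ± 0.15, adjusted p = 0.147) did not pass. NEDD9, a scaffold for AURKA and integrin signalling, was the member that rose (7.75 and 7.13 against 2.08 and 2.80 CPM, 1.61 ± 0.39, adjusted p = 0.00784), and it missed the threshold without AfaR replicate 1 (adjusted p = 0.0509). The AfaR replicates differed in this group, with a summed mitotic level of 5795 CPM in replicate 1 and 7264 in replicate 2, and without replicate 2 the number of mitotic genes called lower was 8 and without replicate 1 it was 1. DNA replication genes were lower in 5 of 44 (median -0.57), which became 14 without AfaR replicate 2 and 3 without AfaR replicate 1. With all libraries, 11.4% of the DNA replication genes were called lower, beside 8.86% over all genes. At an adjusted p under 0.05 at any fold, 23 of them were lower and 2 higher. G1 regulators held single large changes. The cyclin CCND2 stood at 7.24 and 6.83 CPM in AfaR, 219 and 242 in ErlR and 288 and 169.7 in parental cells (-5.03 ± 0.26, adjusted p = 2.14e-06). CDK6 fell (63.3 and 63.8 against 206 and 166 CPM, -1.55 ± 0.14), and the CDK4/6 inhibitor CDKN2C rose (50.3 and 59.2 against 12.7 and 13.6 CPM, 2.06 ± 0.16).

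Metabolic and stress genes gave further contrasts. NRF2 and glutathione genes were higher in 15 of 33 and lower in none (median 0.76). FTH1, the ferritin heavy chain, stood at 2369.7 and 3484 CPM in AfaR, 571 and 546 in ErlR and 1336 and 2289 in parental cells (2.39 ± 0.27, adjusted p = 0.000115), and FTL, the light chain, at 1627 and 2141 against 442 and 476 (2.04 ± 0.17, adjusted p = 1.93e-05). The glutamate-cysteine ligase modifier GCLM differed the other way within the limit (-0.62 ± 0.19, adjusted p = 0.0202). In the list of the aryl hydrocarbon receptor (AHR), drug enzymes and transporters 12 of 28 were higher and 2 lower (median 0.77). The receptor's repressor AHRR stood at 39.5 and 33.7 against 1.30 and 0.808 CPM (5.12 ± 0.28, adjusted p = 2.47e-06) and CYP1B1 at 192 and 184 against 6.37 and 15.5 (4.10 ± 0.48, and 4.85 without ErlR replicate 2), whereas CYP1A1 did not pass (0.84 ± 0.58, adjusted p = 0.257). The drug efflux pump ABCB1 had at most 0.18 CPM in the 4 libraries, and ABCG2 did not pass (0.56 ± 0.40, adjusted p = 0.279).

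Glycolysis and hypoxia genes were called in 5 of 36 each way (median -0.10), a share of 13.9% beside 18.2% higher and 8.86% lower over all genes. Hexokinase HK2 fell (27.0 and 28.1 against 216 and 161 CPM, -2.77 ± 0.17, adjusted p = 4.73e-06) and prolyl hydroxylase P4HA2 rose (184 and 180.5 against 71.4 and 46.2 CPM, 1.63 ± 0.19, adjusted p = 0.000154). Cholesterol and fatty acid genes differed between the ErlR replicates, whose summed levels were 2896 and 6588 CPM, against 3236 and 2826 in AfaR and 8308 and 8740 in parental cells. The 6 genes called lower became 17 without ErlR replicate 1 and 1 without ErlR replicate 2. Of 16 BCL2 family genes 3 were higher (18.8%, beside 18.2% of all genes) and none lower. BCL2L11, which encodes the death inducer BIM, stood at 54.2 and 33.6 CPM in AfaR and 9.87 and 11.2 in ErlR (2.05 ± 0.33, adjusted p = 0.000853). Its parental libraries, at 20.2 and 39.9 CPM, overlapped AfaR and lay above ErlR. BMF stood at 45.2 and 24.1 against 1.56 and 2.49 CPM (4.09 ± 0.56, adjusted p = 0.000374). BCL2 (0.38 ± 0.26, adjusted p = 0.26) and MCL1 (-0.28 ± 0.16, adjusted p = 0.186) did not pass, and BCL2L1 differed within the limit (-0.90 ± 0.20, adjusted p = 0.00429).

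Neighbouring genes differed together in a few places on the genome (GRCh38). Over windows of 31 neighbouring genes tested, the median log2 fold change had a 1st percentile of -0.90 and a 99th percentile of 0.93. The lowest window, at -2.05, was on chromosome 22 from 37282027 to 38570286. There 24 of 31 genes were called lower and 2 higher, and 15 of 16 genes at 20 CPM or more were lower. The scaffold CARD10 stood at 60.1 and 68.7 CPM in AfaR, 615 and 587 in ErlR and 104 and 73.0 in parental cells (-3.22 ± 0.19), and the translation factor EIF3L at 155 and 171, 671 and 642 and 227 and 256 (-2.01 ± 0.14). It was ErlR that lay away from the parental level: the window's median was 1.61 for ErlR against parental cells and -0.33 for AfaR against parental cells. LGALS1, which encodes galectin-1 and lies in the same window, went against its neighbours (766 and 805 against 139.5 and 372 CPM, 1.62 ± 0.35, and 2.46 without ErlR replicate 2).

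The next lowest windows lay side by side on chromosome 1. From 111438638 to 114758676, the stretch that holds NRAS, the median was -1.91, 27 of 31 genes were lower and none was higher. All 22 genes at 20 CPM or more were lower with no overlap between libraries, beside non-overlapping libraries in 76.6% of all genes tested. The stretch was picked for its extreme median, so agreement among its genes is partly built in. The actin capping protein gene CAPZA1 stood at 309 and 336 CPM in AfaR, 1276 and 1108 in ErlR and 309 and 291 in parental cells (-1.89 ± 0.14). The ATP synthase subunit gene ATP5PB stood at 211 and 238, 1003 and 1067 and 279 and 233 CPM (-2.21 ± 0.15), and NRAS gave -2.12 ± 0.14. The median against parental cells was 1.87 in ErlR and -0.02 in AfaR. From 114769479 to 120841481 the median was -1.26, with 16 of 31 genes lower and 3 higher. There WDR3, a ribosome assembly factor, fell (63.7 and 73.0 against 789 and 623 CPM, -3.37 ± 0.18), and NOTCH2 differed the other way within the limit (0.61 ± 0.13, adjusted p = 0.00329).

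The highest windows held gene families. On chromosome 6 from 21592768 to 26227473 the median was 1.92 and 19 of 31 genes were higher. Among them were SOX4 (179 and 119 against 37.5 and 37.6 CPM, 1.99 ± 0.22) and histone genes such as H2AC6 (2.85 ± 0.36), whose mRNAs are measured unevenly by poly(A) selection. Of its 11 genes at 20 CPM or more, 7 had a positive log2 fold change. With windows of 15 genes this stretch was not among the 3 highest. On chromosome 6 from 31982024 to 33087201 the median was 1.53, with 19 of 31 higher, and this is the class II HLA region. Its values against parental cells were 1.00 in AfaR and -1.12 in ErlR. On chromosome 5 from 140558268 to 141512981 it was 1.91, carried by protocadherin genes, which are near copies of each other and can share reads. With only genes at 5 CPM or more the highest window overlapping that stretch had a median of 0.26, and its abundant genes IK (-0.17 ± 0.12, adjusted p = 0.257) and ZMAT2 (0.15 ± 0.12, adjusted p = 0.328) did not pass.

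**Figure D5:**
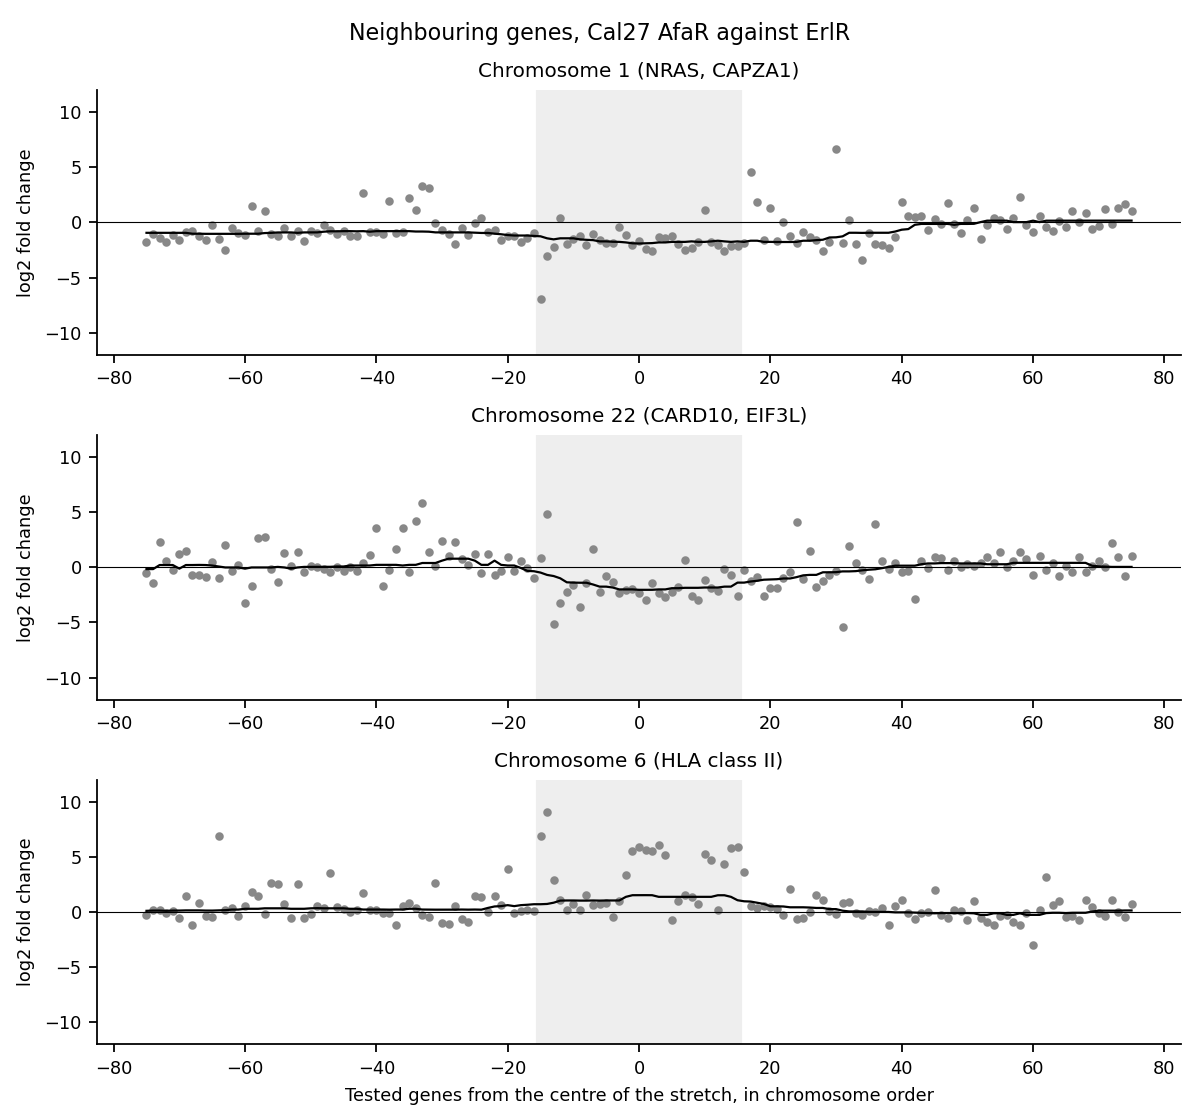
Log2 fold change of AfaR against ErlR (y axis) for tested genes in chromosome order, counted from the centre of 3 stretches (x axis); points are genes, the line is the running median over 31 genes and the shaded band marks the stretch. The line falls to -1.91 in the chromosome 1 stretch and -2.05 in the chromosome 22 stretch and rises to 1.53 in the class II HLA stretch.

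The same contrast in FaDu was smaller. There 690 of 16240 genes tested were higher in AfaR than in ErlR (4.25%) and 233 lower (1.43%). In a model over all 12 libraries, at the same limits, the AfaR minus ErlR difference was higher in Cal27 than in FaDu for 1495 genes (9.21%) and lower for 1184 (7.29%). Epithelial and mesenchymal genes were among those that differed, with a difference between lines of 5.72 ± 0.21 for VIM (adjusted p = 2.23e-08). In FaDu the log2 fold change was -0.07 for VIM (adjusted p = 0.787), 0.48 for CDH1 (adjusted p = 0.0525), -0.16 for EPCAM and -0.30 for TP63, none of them called. Of 23 epithelial regulators 14 had a lower difference in Cal27 and none a higher one, and of 56 matrix genes 27 had a higher difference and 6 a lower one.

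Interferon-stimulated genes leaned the same way in both lines, with 14 of 47 called higher and none lower in FaDu (median 0.68). The difference between lines was larger in Cal27 for 21 of them and larger in FaDu for 1, IFI27, with a log2 fold change of 3.31 in FaDu (adjusted p = 0.000423). MX1 rose in FaDu too (log2 fold change 2.15, adjusted p = 0.0176), and the difference between lines of 1.18 ± 0.70 did not pass (adjusted p = 0.239). ERK output genes were lower in 11 of 29 in FaDu and higher in none (median -0.86). The difference between lines passed the limits for 10 of the 29, with 6 lower and 4 higher in Cal27. DUSP6 fell in both lines (-1.62 in FaDu, adjusted p = 0.00219) and more so in Cal27, with a difference of -1.37 ± 0.37 (adjusted p = 0.0157). SPRY2 was lower in FaDu AfaR (-1.43, adjusted p = 0.00219), with a difference of 2.06 ± 0.31 (adjusted p = 0.000537). SPRY4 (-2.16, adjusted p = 0.00768) and PHLDA1 (-1.32, adjusted p = 0.0116) were lower in FaDu AfaR too, and their differences of -1.12 ± 0.61 and -0.04 ± 0.40 did not pass. Of 9 ERBB ligands tested in all 12 libraries, 3 were lower in FaDu AfaR and none higher, and the difference between lines was lower in Cal27 for 3 and higher for 1. It was -2.85 ± 0.53 for AREG (adjusted p = 0.00197) and -1.91 ± 0.45 for TGFA (adjusted p = 0.00851), and it did not pass for EREG (0.64 ± 0.44, adjusted p = 0.307). NT5E had nearly the same value in both lines, -1.99 in FaDu, with a difference of -0.01 ± 0.37 (adjusted p = 0.999).

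Some genes moved in opposite directions. CCND2 was higher in FaDu AfaR than in FaDu ErlR (log2 fold change 1.77, adjusted p = 0.000685) and lower in Cal27 AfaR (-5.03 ± 0.26). PTGS2 was lower in FaDu AfaR (-1.48, adjusted p = 0.0314) and higher in Cal27 AfaR (3.18 ± 0.39). The chromosome 1 and 22 stretches had FaDu medians of -0.10 and 0.10, and NRAS there differed by -0.19 (adjusted p = 0.288).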

How the data were processed

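The series holds poly(A) RNA-seq libraries of parental, AfaR and ErlR populations of Cal27 and FaDu, 2 replicates each, with ERCC spike-in RNA added. Per the labels and the methods of the study, paired reads were trimmed with Trimmomatic 0.36, aligned to GRCh38 with STAR 2.5.2b and counted per gene with featureCounts of Subread 1.5.2, and the authors deposited the raw count of each gene in each library. The strand setting of the counting is not given in the sources used here, so reads of overlapping antisense genes cannot be told apart. The authors' size-factor normalised tables were not used here, since each scales 1 resistant population with its parental line.

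Groups were taken from the sample labels. The 92 spike-in sequences were removed, leaving 58051 genes, of which 56948 matched a GENCODE v44 identifier for symbol and position. Counts were analysed in R 4.3.3 with edgeR 4.0.16 (TMM scaling, filterByExpr, quasi-likelihood test) over the 6 Cal27 libraries, with the contrast AfaR minus ErlR. A gene was called at a Benjamini-Hochberg adjusted p under 0.05 and a change above 2-fold. The study fitted DESeq2 for each resistant population against its parental line, so DESeq2 1.42.0 served as an alternative, as did other scalings, filters, sets of libraries, glmTreat, a replicate block and leaving out each library. The comparison between lines used an interaction term over all 12 libraries. Spike-ins took 3.86 to 4.54% of counts in the Cal27 libraries, and replicates of a group differed by more than sampling noise. On simulated counts for 14820 genes the test recovered 93% of genes changed by 1.5 and 98% of those changed by 2 on the log2 scale. The changed genes, 100 of each size, were drawn from well-counted genes, and all genes were given a common spread. These rates therefore do not extend to genes with few counts or a wider spread.

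The genes named were the 6 with the largest changes in each direction (mean of at least 5 CPM, at least 10 counts in the lower group, no overlap), genes on in 1 derivative and at most 3 counts in the other, defining genes and up to 5 called members in each direction of 36 gene lists, 16 genes from the study and the 4 most abundant genes of each chromosome stretch. Some genes that these rules would name are not reported here. Other list members and genes of the stretches are named as examples. The comparison, the gene lists and these rules were chosen with earlier results of these data known, and the genes of the comparison between lines were chosen after their values were seen. Promoter windows came from RefSeq (GRCh38.p14).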

Additional observations from a re-analysis of the deposited data

Results flagged for a closer look

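For the comparison of lines 19 genes were chosen after their values were seen, so the number that passed is not a rate. Of these, 14 had an AfaR minus ErlR difference that was not the same in Cal27 and FaDu. The limits for the interaction term (edgeR quasi-likelihood test) were an adjusted p under 0.05 and a difference above 1 on the log2 scale. Over all genes tested, 9.21% had a higher difference in Cal27 and 7.29% a lower one. Values are Cal27 minus FaDu on the log2 scale. The difference was higher in Cal27 for VIM (5.72), the AHR repressor AHRR (5.97), PTGS2 (4.63), FGFR1 (4.33) and TGFB1 (2.29). It was lower in Cal27 for the epithelial genes TP63 (-3.88), ESRP1 (-3.37), EPCAM (-2.58) and CDH1 (-2.25), and for EGFR (-1.27). CCND2 gave -6.83, since it was higher in FaDu AfaR and lower in Cal27 AfaR. The genes of the chromosome 22 and chromosome 1 stretches gave -3.49 for CARD10 and -1.95 for NRAS. IFI27 gave -1.89, with both lines higher in AfaR and the larger change in FaDu. The remaining 5 genes, NT5E, PHLDA1, SPRY4, MX1 and EREG, did not pass.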

How the results depend on the processing

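With the filter of at least 10 counts in each library, 1805 genes were higher and 1005 lower in Cal27 AfaR, and with glmTreat against a 2-fold limit 1615 were higher and 574 lower. The other alternatives stayed within 1.5 times of 2782 and 1353: DESeq2 gave 2450 and 1255, upper-quartile scaling 2970 and 1133, and leaving out 1 library gave 2124 to 2868 and 1092 to 1442. No gene was called in the opposite direction under any alternative. Of the named genes, 86 lost their call under glmTreat, 14 under DESeq2 and 11 to 35 when an AfaR or ErlR library was left out. For the difference between lines, leaving out 1 library gave 1146 to 1508 genes higher in Cal27 and 937 to 1240 lower. A fit with the replicate number as a replicate block gave 2708 higher and 1300 lower genes in Cal27 and 1430 and 1119 for the difference between lines, and 4 named genes lost their call. The deviations of same-numbered libraries correlated at -0.0551 between AfaR and ErlR. They correlated at -0.201 between parental and AfaR and at 0.104 between parental and ErlR. A correlation over all genes cannot show whether same-numbered libraries share a batch that touches few genes. Whether the replicate numbers pair the samples therefore stays undecided. With 2 libraries a group from 1 population each, the counts do not extend to other resistant populations.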
